A study of Homo sapiens with 9 samples.

Results

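The BCL2 family genes BCL2, BCL2L1, MCL1, BCL2A1, BAX, BAK1, BBC3, PMAIP1, BCL2L11 and BID were followed in WM3248, a human melanoma cell line. The 10 genes were taken by name, not by a filter on measured values, though with earlier results of these data known. All 10 were among the 12327 genes tested of 14836 genes named in at least 1 library. Poly-A RNA was sequenced from cells that had received ARN22089 at 0, 4 or 6 µM for 24 h, with 3 libraries at each dose, and the cells at 0 µM were untreated apart from DMSO, the solvent. ARN22089 is a small molecule made to keep GTPases of the CDC42 family from binding their effectors. All 9 libraries share this one cell line, a medium with 2% serum and the harvest time, and RNA was taken from the cells still attached to the plate, so cells that had come loose were not sampled. The labels do not describe the libraries of a dose as separate cultures; the p-values therefore measure the spread among these libraries alone, and that spread may be technical.

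The proteins of this family decide whether a cell keeps its mitochondria intact or releases cytochrome c from them and dies by apoptosis. BAX and BAK1 are the effectors that perforate the outer mitochondrial membrane. BCL2, BCL-XL (from BCL2L1), MCL1 and BFL-1 (from BCL2A1) hold them in check, and the BH3-only proteins PUMA (from BBC3), NOXA (from PMAIP1), BIM (from BCL2L11) and BID act against these guardians or on the effectors directly. In melanoma, BCL2A1 and BCL2 are known as targets of MITF, the regulator of the melanocyte lineage, and MCL1 is known as a short-lived protein on which many melanoma lines depend.

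Several members are known to be spliced into forms with opposed or altered activity, and the deposited assemblies hold the introns that tell these forms apart. The 3 stretches printed here decide between them, each read from GENCODE transcripts on the minus strand, with GRCh38 positions from the assembled introns. The capitals in the MCL1 and BCL2L1 stretches mark the longest run of bases that they share, 9 bases in the part that encodes the BH1 region, by which family members are recognised; the BCL2A1 exon is in lower case throughout.
BCL2A1 middle exon, 56 bases, chr15:79967637-79967692: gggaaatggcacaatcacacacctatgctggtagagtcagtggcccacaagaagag
MCL1 exon 2, 248 bases, chr1:150578244-150578491: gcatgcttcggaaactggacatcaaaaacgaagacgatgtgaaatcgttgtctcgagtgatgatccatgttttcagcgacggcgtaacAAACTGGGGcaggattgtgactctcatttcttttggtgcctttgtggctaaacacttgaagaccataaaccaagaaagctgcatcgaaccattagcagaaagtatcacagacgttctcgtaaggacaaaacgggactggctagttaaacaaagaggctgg
BCL2L1 long-form stretch, 189 bases, chr20:31721655-31721843: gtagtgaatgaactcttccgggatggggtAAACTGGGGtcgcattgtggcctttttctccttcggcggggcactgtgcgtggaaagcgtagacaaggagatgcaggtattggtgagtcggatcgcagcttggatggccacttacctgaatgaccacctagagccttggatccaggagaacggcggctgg
All of these bases are coding. Leaving out the MCL1 exon or the BCL2L1 stretch is known to turn a guardian into a form that promotes death. Both the MCL1 exon, in a chain that encodes 350 residues, and the BCL2L1 stretch, in one that encodes 233 residues, were kept in 9 of 9 libraries. The intron of the skipped MCL1 form (271 residues) and that of the short BCL2L1 form (170 residues) were assembled in 0 of 9 libraries. A minor form can go unassembled, so this does not show that these forms were absent from the cells.

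Every library has an assembly of its own, of 26506 to 30798 transcripts. The files give no read counts, so the depth in reads is unknown; the relative depth, set to 1 for the median library, was lowest (0.802) in 4 µM replicate 3 and highest (1.34) in 6 µM replicate 1. Replicate 3 at 0 µM stood apart, with a sum of FPKM (sequenced fragments per length of transcript and per fragments mapped in the library) of 1061112 where the others lay between 587999 and 689699. Its 2 largest transcripts held 38.7% of that sum, against 2.34% to 18.0% in the other libraries. The 10 listed melanocyte genes averaged above 1 FPKM over the 9 libraries, and the leukocyte gene PTPRC, the endothelial genes PECAM1 and VWF and the epithelial genes CDH1 and EPCAM were listed at 0 throughout. Of 6 fibroblast genes COL1A2, DCN and LUM averaged above 1 FPKM, and the 6 together summed to between 16.8 and 62.8 FPKM. KRT14 and KRT10 of the keratinocyte list and CD68 and LYZ of the leukocyte list also averaged above 1 FPKM. CD68 was named in 1 library alone, replicate 3 at 4 µM with 142 FPKM. Its consensus exon value was 44.0, 64.8 and 63.1 FPKM at 0 µM, 62.7, 76.1 and 142 FPKM at 4 µM, and 54.1, 239 and 67.0 FPKM at 6 µM. That value takes its bases from this 1 assembly and can include transcripts of other genes over them.

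A gene's level is the summed FPKM of its assembled transcripts, and differences are log2 differences of FPKM + 1, which understate the change of low genes. Since an exact 0 can be a failed assembly, a consensus exon value was set beside it, an average of FPKM over the gene's consensus exonic bases. These were the bases covered at least as often as not among the libraries in which the gene was named. Every transcript over those bases counted unless it lay on the opposite strand, whatever gene it was named for. TPM stands for the same values rescaled to a fixed sum in every library. With TPM the median log2 difference of all genes from 0 µM was 0.32 at 4 µM and 0.24 at 6 µM. The TPM differences printed for single genes include that shift. Relative to that median, BCL2L1 stood at -0.03 and BAK1 at -0.01 at 4 µM, and BAK1 at -0.11 and BAX at -0.01 at 6 µM. Tests are those of limma over all genes with Benjamini-Hochberg adjustment at a threshold of 0.05.

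**Figure D1:**
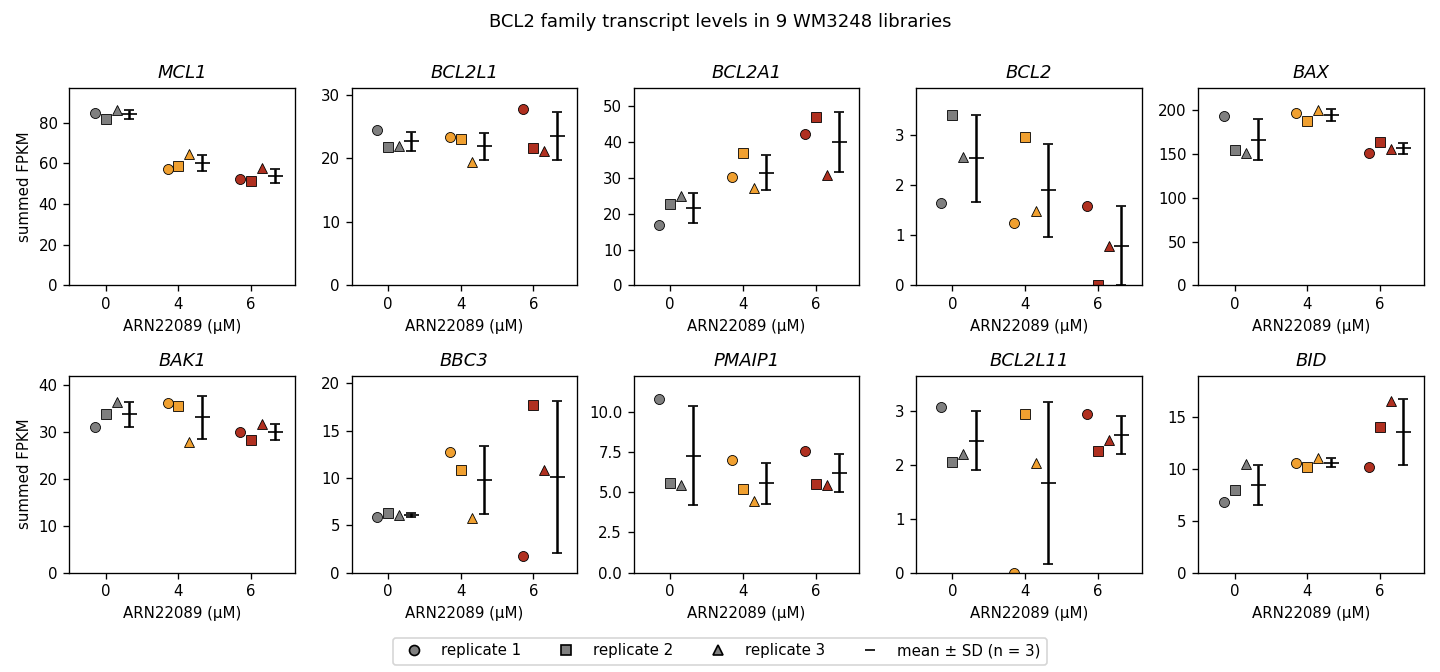
Summed FPKM (vertical axes) of the 10 genes against the dose of ARN22089 in µM, with 1 point per library, its shape giving the replicate number, and the mean ± SD of 3 libraries beside it. MCL1 is lower in every library at 4 and 6 µM than at 0 µM and BCL2A1 higher, while BCL2L1, BAK1 and PMAIP1 overlap between doses.

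Among the guardians, MCL1 was lower and BCL2A1 higher in the treated libraries. At 6 µM, MCL1 averaged 53.7 ± 3.42 FPKM against 84.0 ± 2.21 FPKM at 0 µM (SD, n = 3 each), and BCL2A1 averaged 40.0 ± 8.36 FPKM against 21.5 ± 4.16 FPKM at 0 µM. BCL2L1 averaged 23.5 ± 3.70 FPKM at 6 µM against 22.7 ± 1.51 FPKM at 0 µM. BCL2 was the lowest of the guardians at every dose. With summed FPKM none of these differences passed limma's test over all genes, and with the consensus exon value MCL1 did at 6 µM. In RNA from a whole culture, fewer cells that express a gene and less of its RNA per cell cannot be told apart.

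MCL1 (gene 4170, chr1:150574558-150579610), whose protein binds BAK1 and BIM, had 84.5, 81.6 and 86.0 FPKM at 0 µM, 57.0, 58.5 and 64.4 FPKM at 4 µM, and 52.1, 51.4 and 57.7 FPKM at 6 µM. All 6 treated libraries lay below all 3 at 0 µM, and the 4 and 6 µM libraries overlapped each other. The log2 difference was -0.48 ± 0.11 (SE) at 4 µM against 0 µM (limma adjusted p = 0.269) and -0.64 ± 0.11 at 6 µM against 0 µM (limma adjusted p = 0.0618). With TPM these were -0.13 ± 0.23 and -0.34 ± 0.23 (limma adjusted p = 0.808 and 0.510). With the consensus exon value, which gave 52.1, 50.9 and 57.2 FPKM at 6 µM against 84.5, 79.6 and 85.4 FPKM at 0 µM, MCL1 fell at 6 µM, by 0.63 ± 0.10 on the log2 scale (limma adjusted p = 0.0289, and 0.0255 when replicate number was blocked). That call was kept in 3 of 9 fits that each left out 1 library, with adjusted p-values from 0.0280 to 0.115. It was lost without replicate 2 or 3 at 0 µM, replicate 1 or 2 at 4 µM, or replicate 1 or 2 at 6 µM, while the log2 difference stayed between -0.68 and -0.60. Between 6 and 4 µM the log2 difference was -0.16 ± 0.11 (adjusted p = 0.953).

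BCL2A1 (gene 597, chr15:79960892-79971196), whose protein BFL-1 holds back BIM, BID and PUMA, had 16.9, 22.8 and 24.9 FPKM at 0 µM, 30.2, 37.0 and 27.3 FPKM at 4 µM, and 42.3, 47.1 and 30.8 FPKM at 6 µM. Every treated library was above every library at 0 µM, and replicate 3 was the lowest library at both 4 and 6 µM. The log2 difference was 0.53 ± 0.21 at 4 µM (limma adjusted p = 0.436) and 0.86 ± 0.21 at 6 µM (limma adjusted p = 0.101), each against 0 µM, and 0.88 ± 0.27 and 1.16 ± 0.27 with TPM (limma adjusted p = 0.254 and 0.117). With the consensus exon value the difference at 6 µM was 0.90 ± 0.22 (limma adjusted p = 0.0613). It passed in 1 of 9 fits that each left out 1 library, fits added after seeing the data. That fit was the one without replicate 3 at 6 µM, and the limma adjusted p-values of the 9 ran from 0.0479 to 0.191. The 10 listed melanocyte genes did not move as one. With summed FPKM, PMEL, TYR, DCT and SOX10 were above the 0 µM libraries in every treated library (DCT had 55.3, 141 and 77.4 FPKM at 0 µM, 246, 281 and 258 FPKM at 4 µM, and 218, 365 and 289 FPKM at 6 µM), MLANA was so only at 4 µM and TYRP1 only at 6 µM, and MITF, S100B, MCAM and GPR143 overlapped. Of all genes 9.95% lay wholly above 0 µM at 4 µM and 10.9% at 6 µM. By the consensus exon value DCT overlapped at 6 µM, with 96.0, 322 and 284 FPKM against 55.1, 141 and 77.4 FPKM at 0 µM. By that value MLANA overlapped at 4 µM and TYRP1 was above at both doses. Of all genes 10.5% lay wholly above by that value at 4 µM and 12.1% at 6 µM. The list summed to between 656 and 1630 FPKM at 0 µM, 1430 and 2550 FPKM at 4 µM, and 1550 and 2200 FPKM at 6 µM, ranges that overlap and rest largely on S100B. Their part in the level of BCL2A1 was not tested.

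BCL2L1 (gene 598, chr20:31664452-31723963), which encodes BCL-XL, had 24.4, 21.8 and 21.9 FPKM at 0 µM, 23.3, 23.0 and 19.4 FPKM at 4 µM, and 27.8, 21.6 and 21.1 FPKM at 6 µM. The doses overlapped, with log2 differences from 0 µM of -0.05 ± 0.15 at 4 µM and 0.04 ± 0.15 at 6 µM (limma adjusted p = 0.918 and 0.921), the first of which turned positive, 0.29, with TPM. Opposite-strand transcripts over its first coding exon were assembled in 8 of 9 libraries, at 2.36 to 26.1 FPKM, and since no source used here states that the library preparation kept strand, reads of BCL2L1 and of these transcripts cannot be told apart with certainty.

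BCL2 (gene 596, chr18:63123346-63320090), the guardian for which the family is named, had 1.65, 3.40 and 2.57 FPKM at 0 µM, 1.24, 2.97 and 1.49 FPKM at 4 µM, and 1.59, 0 and 0.795 FPKM at 6 µM. Its libraries at 6 µM were all below those at 0 µM, 1 of them at 0. The log2 difference at 6 µM was -1.05 ± 0.42 (limma adjusted p = 0.243), and without the library listed at 0 it was -0.68. The gene was assembled in fragments, with 19 single-exon pieces on its strand at 0.526 to 1.95 FPKM over all 9 libraries, among them the library listed at 0, so the summed value undercounts it. Those pieces averaged 1.46, 1.36 and 1.15 FPKM per base at 0 µM, 1.32, 1.60 and 1.61 FPKM at 4 µM, and 1.24, 1.08 and 1.05 FPKM at 6 µM. The pieces at 6 µM thus overlapped those at 0 µM. The consensus exon value of BCL2 was 0.884, 1.88 and 1.56 FPKM at 0 µM, 1.11, 1.48 and 0.972 FPKM at 4 µM, and 0.551, 0 and 0.430 FPKM at 6 µM. Over the 9 libraries it averaged under the minimum of 1 FPKM, so it was not tested.

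Within a library, ratios between these genes do not depend on the scaling of that library. MCL1 made up 66.3%, 63.0% and 63.5% of the FPKM of the 4 guardians at 0 µM, 51.0%, 48.2% and 57.2% in the 4 µM libraries, and 42.1%, 42.8% and 52.2% in those treated with 6 µM. BCL2A1 made up 13.3%, 17.6% and 18.4% at 0 µM, 27.0%, 30.5% and 24.2% in the 4 µM libraries, and 34.2%, 39.2% and 27.9% in those treated with 6 µM. The treated libraries lay on one side of those at 0 µM for both shares, and replicate 3 stayed nearest to the 0 µM libraries at both doses. The ratio of BCL2A1 to MCL1 was 0.200, 0.279 and 0.290 in the 0 µM libraries, 0.530, 0.633 and 0.423 with 4 µM, and 0.811, 0.916 and 0.534 with 6 µM. In sum the 4 guardians had 127, 130 and 135 FPKM at 0 µM, 112, 121 and 113 FPKM at 4 µM, and 124, 120 and 110 FPKM at 6 µM. Unlike the shares, these sums depend on the scaling of each library, which stood apart in replicate 3 at 0 µM, and no difference is read from them. Shares and sums over chosen members are given without a test.

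**Figure D2:**
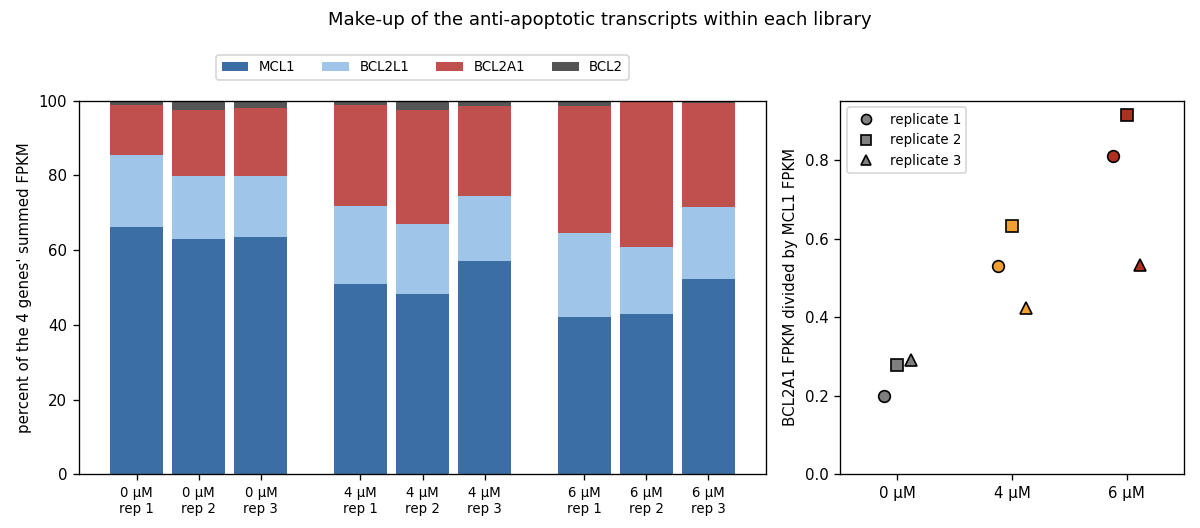
Left, the percent of the summed FPKM of MCL1, BCL2L1, BCL2A1 and BCL2 that each gene held in each of the 9 libraries, as stacked bars. Right, BCL2A1 FPKM divided by MCL1 FPKM against dose, 1 point per library with the shape giving the replicate number; the highest library is replicate 2 at 6 µM, at 0.916, and the lowest replicate 1 at 0 µM, at 0.200.

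Of the effectors, BAX was the most abundant member at every dose, and no difference in BAX or BAK1 passed the test with either gene value. BAX (gene 581, chr19:48954875-48961798) had 193, 154 and 151 FPKM at 0 µM, 197, 187 and 200 FPKM at 4 µM, and 151, 163 and 155 FPKM at 6 µM. Its 6 µM libraries were all below its 4 µM libraries and overlapped those at 0 µM. The log2 difference was -0.31 ± 0.13 at 6 against 4 µM (unadjusted p = 0.0459, limma adjusted p = 0.953), 0.23 ± 0.13 at 4 against 0 µM (adjusted p = 0.547) and -0.07 ± 0.13 at 6 against 0 µM (adjusted p = 0.802), a value that was 0.23 with TPM.

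BAK1 (gene 578, chr6:33572552-33580276), the effector that MCL1 restrains, had 31.0, 33.8 and 36.3 FPKM at 0 µM, 36.0, 35.4 and 27.8 FPKM at 4 µM, and 29.9, 28.3 and 31.6 FPKM at 6 µM. The doses overlapped. Log2 differences from 0 µM were -0.03 ± 0.14 at 4 µM and -0.16 ± 0.14 at 6 µM (limma adjusted p = 0.951 and 0.584), and they were 0.31 and 0.13 with TPM. By the consensus exon value BAK1 had 29.8, 28.2 and 30.5 FPKM at 6 µM against 31.0, 33.7 and 36.3 FPKM at 0 µM, all below. The log2 difference by that value was -0.18 ± 0.13. Of all genes 19.2% lay wholly below 0 µM at 6 µM by that value. With summed FPKM BAX stood at 4.15 to 7.20 times the level of BAK1 over the 9 libraries.

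Among the BH3-only genes no difference passed the test with summed FPKM, and the treated libraries of each overlapped those at 0 µM. BID was separated from 0 µM only by its consensus exon value, at both doses, and BBC3 by that value at 6 µM. By that value 10.5% of all genes lay wholly above 0 µM at 4 µM and 12.1% at 6 µM. BID (gene 637, chr22:17734138-17774665), whose protein caspase-8 cleaves into its active form, had 6.80, 7.99 and 10.5 FPKM at 0 µM, 10.6, 10.2 and 11.0 FPKM at 4 µM, and 10.2, 14.0 and 16.5 FPKM at 6 µM. The log2 difference was 0.32 ± 0.21 at 4 µM (limma adjusted p = 0.599, and 0.66 with TPM) and 0.62 ± 0.21 at 6 µM (limma adjusted p = 0.184), with replicate 3 at 0 µM as high as the lowest treated libraries. The consensus exon value of BID was 6.52, 7.99 and 7.41 FPKM at 0 µM, 10.6, 10.2 and 11.0 FPKM at 4 µM, and 10.1, 10.7 and 9.96 FPKM at 6 µM, with no overlap of treated and untreated libraries. By that value BID rose at 6 µM, by 0.44 ± 0.10 on the log2 scale (limma adjusted p = 0.0454), but not when replicate number was blocked (adjusted p = 0.0532), nor in any of 9 fits that left out 1 library (adjusted p from 0.0586 to 0.154). At 4 µM the same value gave 0.48 ± 0.10 (adjusted p = 0.162).

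BBC3 (gene 27113, chr19:47220824-47232860), whose protein PUMA binds all the guardians, had 5.93, 6.26 and 6.08 FPKM at 0 µM, 12.7, 10.9 and 5.77 FPKM at 4 µM, and 1.76, 17.7 and 10.9 FPKM at 6 µM. The 0 µM libraries were nearly equal and the treated ones spread to both sides of them. Replicate 1 at 6 µM, the lowest, was the 1 library with uncounted single-exon pieces on the gene's strand, at up to 8.72 FPKM. Uncounted pieces of no stated strand lay in every library at 6 µM, at 0.728 to 2.45 FPKM. An uncounted spliced piece was assembled in replicate 1 at 0 µM (2.25 FPKM) and in replicate 1 at 6 µM (2.80 FPKM). The consensus exon value counts such pieces where they cover its bases. By that value BBC3 had 7.17, 14.9 and 9.11 FPKM at 6 µM against 5.89, 4.84 and 4.59 FPKM at 0 µM, all above. The log2 difference at 6 µM was 0.26 ± 0.62 with summed FPKM (limma adjusted p = 0.862) and 0.85 ± 0.29 with the consensus exon value (limma adjusted p = 0.124). Leaving out replicate 1 at 6 µM gave 1.07 with summed FPKM and leaving out replicate 2 at 6 µM gave -0.31.

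PMAIP1 (gene 5366, chr18:59899996-59904305), whose protein NOXA binds MCL1 and promotes its breakdown, had 10.8, 5.59 and 5.42 FPKM at 0 µM, 6.97, 5.22 and 4.46 FPKM at 4 µM, and 7.54, 5.53 and 5.45 FPKM at 6 µM. Replicate 1 was the highest library at each dose. Log2 differences from 0 µM were -0.30 ± 0.27 at 4 µM and -0.16 ± 0.27 at 6 µM (limma adjusted p = 0.698 and 0.797); without replicate 1 at 0 µM the first was -0.01, and with TPM they were 0.00 and 0.10.

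BCL2L11 (gene 10018, chr2:111120914-111168445), which encodes BIM, a binder of all the guardians, had 3.08, 2.06 and 2.21 FPKM at 0 µM, 0, 2.94 and 2.04 FPKM at 4 µM, and 2.94, 2.26 and 2.46 FPKM at 6 µM. Apart from the library listed at 0, the doses overlapped within a narrow range. Log2 differences were -0.58 ± 0.47 at 4 µM and 0.05 ± 0.47 at 6 µM (limma adjusted p = 0.661 and 0.972), and without the library listed at 0 the first was 0.02.

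Over the 10 genes, 0 passed limma's test at 4 µM against 0 µM, where 0.0730% of all genes tested did, 0 at 6 µM against 0 µM, where 0.308% did, and 0 at 6 against 4 µM, where 0.0243% did. At an unadjusted p below 0.05 there were 1 higher and 1 lower at 4 µM (BCL2A1 and MCL1), beside 6.16% and 4.61% of all genes, and 2 higher (BCL2A1 and BID) and 2 lower (MCL1 and BCL2) at 6 µM, beside 8.09% and 9.65% of all genes. Between 6 and 4 µM 1 gene, BAX, was lower, beside 2.95% of all genes. By the consensus exon value 9 of the 10 were tested at 6 µM, of which 1 rose and 1 fell, beside 1.65% and 2.64% of all genes. Of those 9, 2 lay wholly above and 1 wholly below 0 µM at 4 µM, beside 10.5% and 10.9% of all genes. At 6 µM 3 lay above and 2 below, beside 12.1% and 19.2%. With summed FPKM the groups did not overlap for 2 members at 4 µM against 0 µM (18.3% of all genes). They did not overlap for 3 at 6 µM against 0 µM (24.9%) and for 1 at 6 against 4 µM (11.0%). The median log2 difference of the 10 was -0.04 at 4 µM and -0.02 at 6 µM, beside 0.00 and -0.03 over all genes. With TPM the median of all genes was 0.32 at 4 µM and 0.24 at 6 µM. Relative to that median MCL1 stood at -0.45 and -0.58, BCL2A1 at 0.56 and 0.92, and BID at 0.34 and 0.68.

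**Figure D3:**
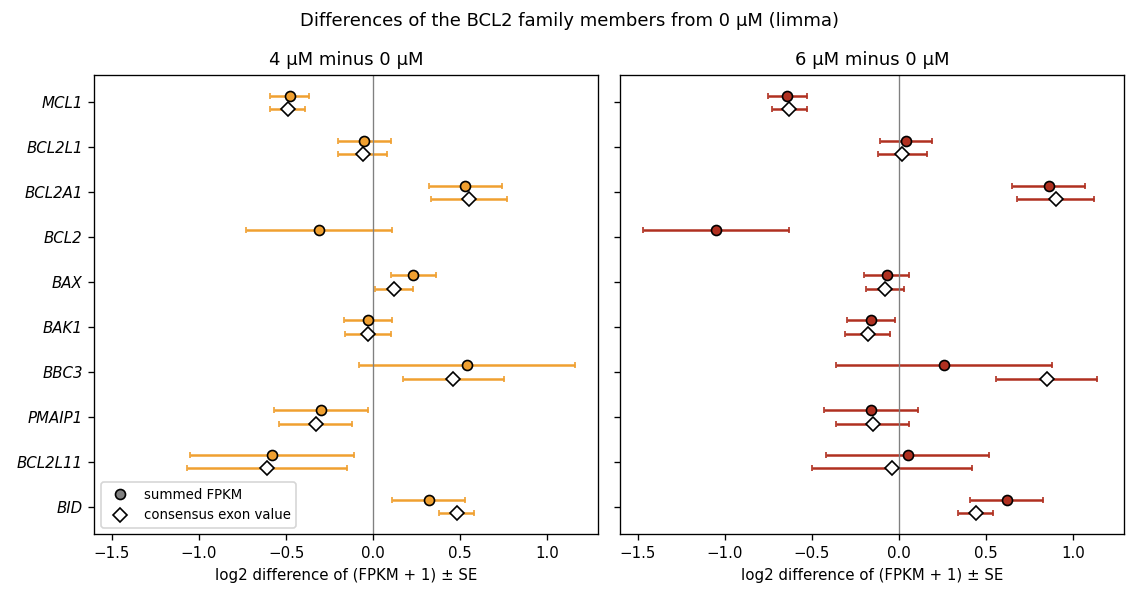
Log2 differences of FPKM + 1 from 0 µM (horizontal axes) with their SE for each of the 10 genes, at 4 µM on the left and 6 µM on the right, with filled circles for summed FPKM and open diamonds for the consensus exon value, which was not tested for BCL2. MCL1 lies left of 0 and BCL2A1 and BID right of it at both doses with both values, and the 2 values of BBC3 differ most at 6 µM, 0.26 and 0.85.

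FPKM is per length, so levels can be set in order within a dose. At 0 µM the order of mean FPKM was BAX (166), MCL1 (84.0), BAK1 (33.7), BCL2L1 (22.7), BCL2A1 (21.5), BID (8.44), PMAIP1 (7.28), BBC3 (6.09), BCL2 (2.54) and BCL2L11 (2.45). The ranges of BCL2L1 and BCL2A1, of BID and PMAIP1, of PMAIP1 and BBC3, and of BCL2 and BCL2L11 overlapped, and those of the other neighbours did not. BCL2A1 was 5th at 0 µM, 4th at 4 µM and 3rd at 6 µM, where its range of 30.8 to 47.1 FPKM overlapped that of BAK1, 28.3 to 31.6 FPKM, and lay above that of BCL2L1, 21.1 to 27.8 FPKM. BAX and MCL1 were 1st and 2nd at every dose with no overlap with their neighbours.

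The assembled intron chains showed which forms carried these levels. Of BCL2A1, the form without the printed middle exon, which encodes 175 residues, had 12.8, 16.8 and 20.3 FPKM at 0 µM, 24.1, 29.5 and 19.4 FPKM at 4 µM, and 34.4, 47.1 and 25.9 FPKM at 6 µM. The form that keeps the exon, which at 56 bases shifts the reading frame and gives 163 residues, had 4.14, 5.95 and 4.62 FPKM at 0 µM, 6.10, 7.51 and 7.91 FPKM at 4 µM, and 7.83, 0 and 4.92 FPKM at 6 µM. The exon-free form was the larger in all 9 libraries, at 71.0% to 100% of the gene's FPKM, and in replicate 2 at 6 µM the other form was not assembled. At 4 µM both forms averaged higher than at 0 µM, 24.3 ± 5.07 FPKM against 16.6 ± 3.78 FPKM and 7.17 ± 0.951 FPKM against 4.90 ± 0.940 FPKM (SD, n = 3 each). At 6 µM the exon-free form averaged 35.8 ± 10.7 FPKM and the other 4.25 ± 3.96 FPKM. These form levels are given without a test.

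BAX was carried by 1 chain that encodes 192 residues (99.0% of its FPKM), BAK1 by 1 of 211 residues (98.5%), MCL1 by the chain with exon 2 (97.3%), and BCL2L1, PMAIP1 and BID each by a single chain. In replicate 1 at 4 µM another 15.7 FPKM of MCL1 came from a chain of 3 introns in place of 2. BBC3 was assembled in 8 different chains, and the one with the largest share, 48.7% of its FPKM, was found in 7 of 9 libraries. BCL2L11 was assembled in 9 chains. An intron that the BIM form of 138 residues shares with other annotated forms was found in 5 libraries, 3 of them at 0 µM. It had 2.39, 0.983 and 1.16 FPKM there, 0.906 FPKM in replicate 2 at 4 µM and 1.30 FPKM in replicate 1 at 6 µM. Of that 1.30 FPKM, 0.716 FPKM came from the chain of the 138-residue form. An intron bordering an exon of a transcript annotated for nonsense-mediated decay was found in 5 libraries, at 0.614 to 2.46 FPKM. At such levels an intron not assembled in a library cannot be told from one that was too thinly covered.

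**Figure D4:**
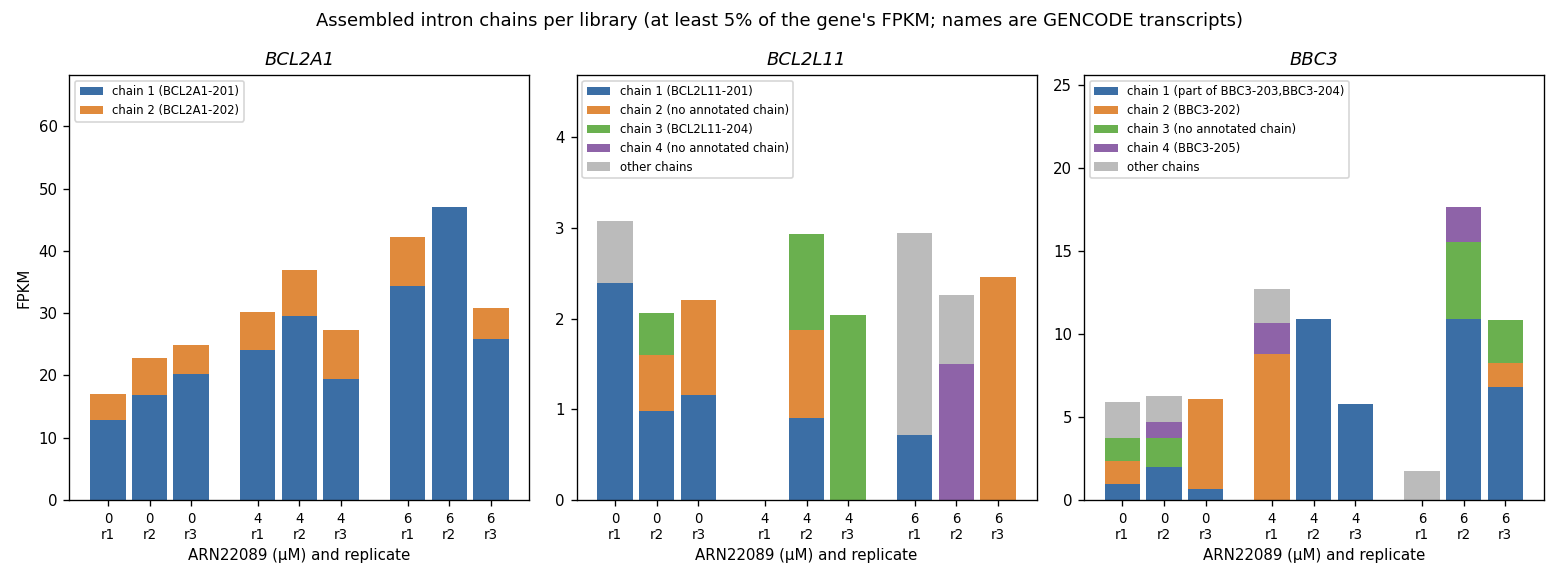
FPKM of the assembled intron chains of BCL2A1, BCL2L11 and BBC3 (vertical axes) in each of the 9 libraries, ordered by dose and replicate, as stacked bars for chains with at least 5% of the gene's FPKM and grey for the rest. The chain named BCL2A1-201, without the middle exon, is the larger in every library, and BBC3 and BCL2L11 are carried by different chains from library to library.

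The BCL2A1 promoter is shown because the assembled transcripts began within it. It is the RefSeq window around the annotated start (position 79971196 on GRCh38.p14), on the minus strand, with its one CATGTG in capitals, at -25 to -20 from the start.
BCL2A1 promoter, 300 bases, chr15:79971147-79971446: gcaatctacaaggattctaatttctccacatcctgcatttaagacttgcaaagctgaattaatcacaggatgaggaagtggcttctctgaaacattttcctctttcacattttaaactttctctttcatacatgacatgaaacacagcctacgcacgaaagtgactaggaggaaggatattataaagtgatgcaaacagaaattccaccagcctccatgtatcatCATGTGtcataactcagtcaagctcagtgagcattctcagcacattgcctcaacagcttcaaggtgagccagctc
In all 9 libraries the assembled BCL2A1 transcripts began upstream of that start, by 108, 173 and 187 bases at 0 µM, 187, 198 and 128 bases at 4 µM, and 187, 199 and 198 bases at 6 µM, so that most of the printed bases lay within the assembled first exon. CATGTG and CACGTG are E-box letters that MITF is known to bind. RefSeq promoters were at hand for 9 of the 10 genes. Searched on both strands, CATGTG lay in a promoter of 2 of those 9 genes (BCL2A1 and BID) and CACGTG in one of 3 (BAX, BBC3 and BID), beside 11.1% and 7.26% of all 35116 promoters. BID was in both groups. The NF-kB consensus lay in 0 of 9, beside 5.91% of all promoters. BID was searched in 5 promoters, and the genes named with it in 1 each.

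The genes whose pattern over the 9 libraries was most like that of MCL1, the member with the smallest unadjusted p at 6 µM, were PTPN1, MAN2A1, PDCL, LUZP1 and RAD21, with root mean square differences of 0.0604 to 0.0890 on the log2 scale. PTPN1, a tyrosine phosphatase, averaged 44.1 ± 2.72 FPKM at 0 µM, 32.0 ± 2.27 FPKM at 4 µM and 27.7 ± 3.03 FPKM at 6 µM (SD, n = 3 each). RAD21, a cohesin subunit of about the level of MCL1, averaged 83.1 ± 3.77 FPKM at 0 µM, 59.5 ± 7.71 FPKM at 4 µM and 52.1 ± 6.14 FPKM at 6 µM. At 6 µM their adjusted p-values in limma's test were 0.0656 and 0.0762.

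Other genes of the pathway were taken from 5 lists. Of 15 further BCL2 family and BH3 protein genes 11 were tested and 0 passed limma's test at either dose, where 0.0730% (4 µM) and 0.308% (6 µM) of all genes did. At an unadjusted p below 0.05 at 6 µM 3 were higher and 1 lower, beside 8.09% and 9.65% of all genes. Their median log2 difference at 6 µM was 0.20, beside -0.03 over all genes. BMF, a BH3-only gene, had 1.12, 1.29 and 1.27 FPKM at 0 µM, 3.63, 2.91 and 0 FPKM at 4 µM, and 4.79, 7.03 and 3.50 FPKM at 6 µM. Its 6 µM libraries were all above those at 0 µM, with a log2 difference of 1.41 ± 0.54 (limma adjusted p = 0.233). MOAP1, a BAX partner, had 20.7, 22.8 and 19.4 FPKM at 6 µM against 14.7, 17.4 and 16.2 FPKM at 0 µM (0.36 ± 0.13, adjusted p = 0.208), and BCL2L12 had 10.0, 17.1 and 19.5 FPKM against 22.1, 27.5 and 23.9 FPKM at 0 µM (-0.67 ± 0.23, adjusted p = 0.197). By the consensus exon value BCL2L12 overlapped, with 10.0, 15.7 and 19.5 FPKM at 6 µM against 17.8, 23.6 and 21.7 FPKM at 0 µM (-0.49 ± 0.22, limma adjusted p = 0.210). BCL2L2, which encodes the guardian BCL-W, was listed at 0 in 2 libraries at 0 µM, where its consensus exon values were 19.2, 18.8 and 23.2 FPKM, against 22.8, 27.8 and 25.5 FPKM at 6 µM, a log2 difference of 0.30 ± 0.12 (adjusted p = 0.161). BCL2L10, HRK, BCL2L14 and BCL2L15 were listed at 0 in all 9 libraries.

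Of 16 genes of the mitochondrial effectors, the apoptosome and the caspases, all tested, 0 passed at 4 µM, beside 0.0730% of all genes. At 6 µM 1 passed, lower, beside 0.308% of all genes in both directions. It was DFFA, which encodes the inhibitor of the apoptotic nuclease, with 11.0, 12.7 and 13.4 FPKM at 6 µM against 26.8, 26.1 and 26.3 FPKM at 0 µM, so that it fell by 1.04 ± 0.13 on the log2 scale (limma adjusted p = 0.0373). Its consensus exon value gave a difference of -0.29 ± 0.11 (adjusted p = 0.168), and with a block for replicate number its adjusted p was 0.0560. Leaving out replicate 2 or 3 at 0 µM, replicate 2 or 3 at 4 µM, or replicate 1 or 2 at 6 µM also ended the call, with adjusted p-values from 0.0509 to 0.113 and log2 differences from -1.06 to -0.97. At an unadjusted p below 0.05 at 6 µM 1 gene of this list was higher and 4 lower, beside 8.09% and 9.65% of all genes. The median log2 difference of the list at 6 µM was -0.22, beside -0.03 over all genes. CASP2, an initiator caspase, was lower in every library at 6 µM than in any at 0 µM, with a log2 difference of -0.68 ± 0.22 (limma adjusted p = 0.170). ENDOG, a mitochondrial nuclease, was listed at 0 in all 0 µM libraries, at 7.12, 7.03 and 6.00 FPKM at 4 µM, and at 0, 7.31 and 6.68 FPKM at 6 µM. HTRA2, a mitochondrial protease, had 19.4, 20.8 and 15.7 FPKM at 0 µM, 15.0, 24.3 and 15.2 FPKM at 4 µM, and 0, 18.2 and 0 FPKM at 6 µM.

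Of 7 inhibitors of apoptosis 5 were tested and 0 passed with summed FPKM, beside 0.0730% of all genes at 4 µM and 0.308% at 6 µM. BIRC3, which encodes cIAP2, a known NF-kB target, had 1.51, 0.842 and 0.591 FPKM at 0 µM, 4.59, 3.31 and 1.82 FPKM at 4 µM, and 8.59, 8.96 and 3.22 FPKM at 6 µM. With summed FPKM all treated libraries lay above those at 0 µM, with a log2 difference of 1.92 ± 0.40 at 6 µM (limma adjusted p = 0.0704). By the consensus exon value BIRC3 rose at 6 µM, as did 1.65% of all genes, by 2.06 ± 0.39 (limma adjusted p = 0.0356). At 4 µM that value was 3.56, 2.42 and 0.694 FPKM, which overlapped the 0.976, 0.157 and 0.237 FPKM at 0 µM. BIRC5, which encodes survivin and is expressed in dividing cells, had 27.4, 25.2 and 35.7 FPKM at 6 µM against 115, 100 and 64.4 FPKM at 0 µM (adjusted p = 0.0631), a log2 difference of -1.61 ± 0.31 that was -0.28 ± 0.38 with the consensus exon value. XIAP and BIRC2 had log2 differences of -0.45 ± 0.29 and 0.38 ± 0.20 (limma adjusted p = 0.456 and 0.349), and XIAP -0.08 ± 0.12 with the consensus exon value.

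Of 20 transcription regulators of family members 19 were tested and 0 passed with summed FPKM, beside 0.0730% of all genes at 4 µM and 0.308% at 6 µM. At an unadjusted p below 0.05 at 6 µM 3 were higher and 1 lower, beside 8.09% and 9.65% of all genes. Their median log2 difference at 6 µM was 0.29, beside -0.03 over all genes. RELB, an NF-kB subunit, had 12.8, 21.1 and 15.3 FPKM at 6 µM against 5.06, 3.76 and 5.23 FPKM at 0 µM (1.60 ± 0.46, limma adjusted p = 0.137). ATF3, a stress-induced factor, had 13.4, 8.01 and 5.89 FPKM at 6 µM against 4.54, 3.03 and 3.81 FPKM at 0 µM (1.02 ± 0.27, adjusted p = 0.113). By the consensus exon value with replicate number blocked ATF3 rose, by 1.04 ± 0.18 on the log2 scale (limma adjusted p = 0.0338). That fit was added after seeing the data, and in it 2.26% of all genes rose and 3.27% fell. Without the block the limma adjusted p of ATF3 was 0.0610. In RELB and ATF3 all libraries at 6 µM were above all at 0 µM. E2F1, an activator of several BH3-only genes, was at 10.5, 12.7 and 12.1 FPKM at 6 µM against 18.6, 21.0 and 19.0 FPKM at 0 µM, lower in every library (-0.69 ± 0.13, adjusted p = 0.0631). By the consensus exon value the 2 doses overlapped for E2F1, at 10.1, 11.7 and 11.4 FPKM against 11.4, 19.8 and 18.1 FPKM at 0 µM.

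Of 14 genes that act on the turnover of MCL1, BIM, NOXA and BID, 13 were tested and 0 passed, beside 0.0730% of all genes at 4 µM and 0.308% at 6 µM. Their median log2 difference at 6 µM was -0.01, beside -0.03 over all genes. The kinase genes CSNK1A1 and CSNK2A1, the first of which encodes a kinase of BID, had log2 differences of -0.72 ± 0.18 and -0.37 ± 0.18 at 6 µM (limma adjusted p = 0.106 and 0.322), and -0.34 ± 0.14 and -0.10 ± 0.13 with the consensus exon value. CUL5, a cullin of the machinery that degrades NOXA, stood at 3.82, 4.42 and 6.00 FPKM at 6 µM against 5.53, 17.1 and 13.6 FPKM at 0 µM (-1.08 ± 0.43, adjusted p = 0.245), and with the consensus exon value at -0.32 ± 0.17.

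**Figure D5:**
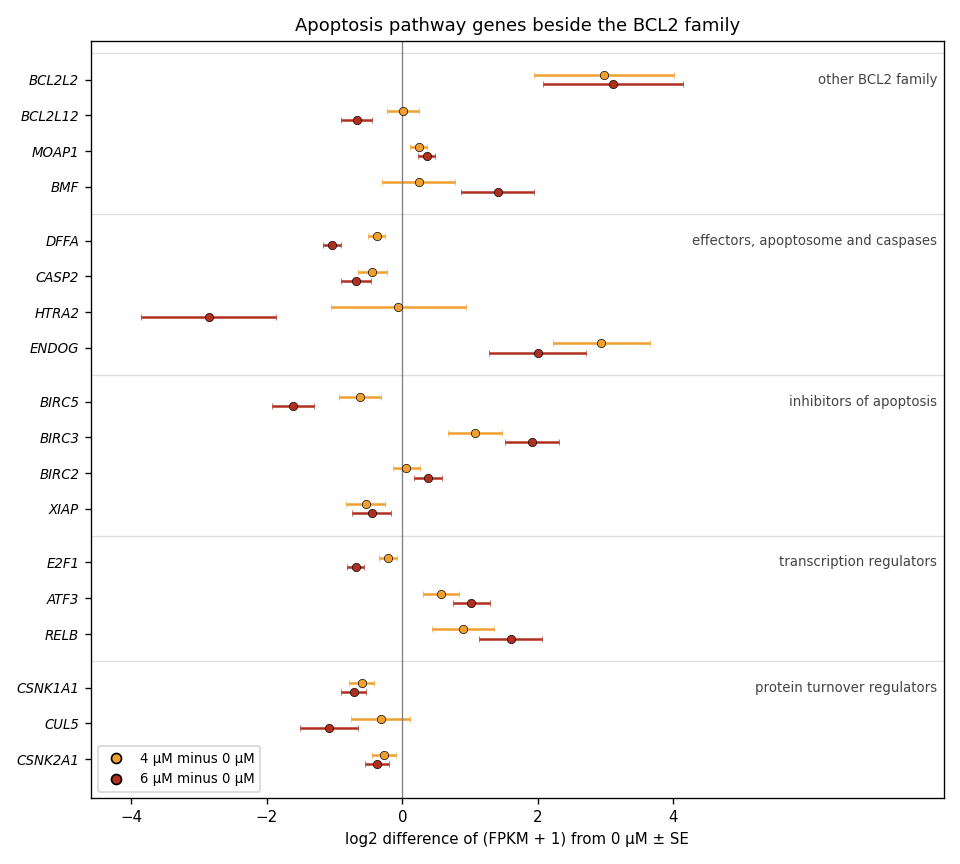
Log2 differences of FPKM + 1 from 0 µM (horizontal axis) with their SE, at 4 µM and at 6 µM, for the genes named here from the 5 pathway lists, from summed FPKM. DFFA, at -1.04 at 6 µM, is the only gene shown that passed the adjusted threshold with this value, and the wide bars belong to genes listed at 0 in some libraries, such as BCL2L2, HTRA2 and ENDOG.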

How the data were processed

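Poly-A RNA of WM3248 cells was sequenced in 9 libraries, 3 each at 0, 4 and 6 µM ARN22089. The submitters' processing notes list Cufflinks 2.2.1, TopHat2 2.1 with Bowtie2 2.2.7, Trimmomatic, R 4.0.3 and SAMtools 1.9. The deposited values are FPKM, given by Cufflinks for each assembled transcript in the attribute text of the authors' files, 1 assembly per library, with no gene names and no scaling between libraries. The notes name GRCh37, but 732 transcripts lie on scaffolds found only in GRCh38, and coordinates are given as GRCh38.

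A spliced transcript took the RefSeq gene that it overlapped on its strand and with which it shared most intron lengths (GENCODE), which named 95.8% of 193769; unspliced transcripts counted only in genes never assembled with introns. Pairs of overlapping or opposite-strand genes are therefore uncertain. Between 421 and 591 tested genes were at 0 in a library. The test took genes that averaged 1 FPKM or more, on log2(FPKM + 1) with limma 3.58.1 (R 4.3.3), a procedure tested on simulated data, with all 9 libraries in 1 fit, 6 residual degrees of freedom and a variance prior that follows mean expression. P-values were adjusted over all 12327 genes (12249 with the consensus exon value). Names and figures were made in Python 3.11.15 with pandas 2.3.3 and matplotlib 3.10.9.

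Same-numbered libraries share a tag in the labels that reads like a day, and were taken as pairs in the blocked fits, although the labels do not state what the tag marks; their deviations from the dose means correlated at -0.0058 to 0.13, against -0.088 to 0.0058 for other numbers, and 2 of 9 same-number pairs were over 0.1. The 10 genes, the lists and the consensus exon value were chosen with earlier results of these data known. From each list the text names every gene past the test and up to 4 more with the smallest p at 6 µM, and those of the genes not tested that were at 0 throughout; 3 of these genes are not reported here. Alternatives were another gene value, pseudocount, filter, scaling, variance prior, set of libraries and the block.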

Additional observations from a re-analysis of the deposited data

How the results depend on the processing

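The counts of genes past limma's test are small and move with most choices, and the causes were not tested. For 4 against 0 µM the count was 9, 2 with the replicate block, and 4 to 25 leaving out 1 library; it moved by over 1.5 times without any 1 of the libraries at 0 µM (25, 23 and 23), without replicate 3 at 4 µM (16) or without replicate 1 at 6 µM (4). For 6 against 0 µM it was 38, 525 with the consensus exon value, 677 with that value and the replicate block, 63 with median-of-ratios scaling, 15 with TPM, 4 with the replicate block, 17 with one variance prior, 17 with only the 2 doses compared, and 17 to 74 leaving out 1 library, with replicate 1 at 0 µM giving 74, replicates 1 and 2 at 4 µM giving 17 each and replicates 1 and 2 at 6 µM giving 18 each. TPM left 14 higher and 1 lower, where the deposited FPKM gave 22 higher and 16 lower, and the consensus exon value gave 202 higher and 323 lower; median-of-ratios scaling gave 38 higher and 25 lower. For 6 against 4 µM it was 3, 6 with the consensus exon value, 5 without a filter on low values, 5 with one variance prior, 1 with the replicate block, 5 with the consensus exon value and the block, and 2 to 14 leaving out 1 library (14, 13, 10, 9, 8, 7 and 5 without 6 µM replicate 2, 4 µM replicate 3, 6 µM replicate 1, 6 µM replicate 3, 0 µM replicate 1, 4 µM replicate 2 and 4 µM replicate 1).

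Of the family members, 0 passed at 6 against 0 µM with summed FPKM, 2 with the consensus exon value (BID and MCL1) and 1 (MCL1) with that value and the replicate block; the block changed no other call of a member. The fits that combine the consensus exon value with the block, or with leaving out 1 library, were added after seeing the data. Over 30 results of members (10 genes in 3 comparisons) and up to 18 settings, 28 never passed and 17 never changed sign, leaving aside the fits of the consensus exon value without 1 library, in 1 of which BCL2A1 passed at 6 µM (adjusted p 0.0479). MCL1 was lower and BCL2A1 and BID higher than at 0 µM at both doses in every setting. At 6 µM, over the same 18 settings, MCL1 ranged from -0.69 to -0.34 (adjusted p 0.0255 to 0.510), BCL2A1 from 0.70 to 1.16 (0.0610 to 0.270) and BID from 0.44 to 0.92 (0.0454 to 0.376). Grouping transcripts by the intron that tells forms apart moved no form level by more than the SD of its chain, but MCL1 with exon 2 at 4 µM averaged 60.0 ± 3.94 FPKM when grouped and 54.7 ± 12.1 FPKM as a chain. Depth in reads is unknown, which limits what can be said of BCL2, BCL2L11 and forms under about 1 FPKM.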
